A study of Mus musculus with 9 samples.

Results

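Gene expression was compared in microglia, the macrophages that reside in the brain, between 90 days and 7 days after a traumatic brain injury in mice. The comparison took 6 of the 9 libraries of the study, those of day 7 replicates 2, 3 and 4 and of day 90 replicates 1, 3 and 4, with 1 mouse behind each library. Of the 49671 genes listed, the 13600 with at least 1 read per 1000000 reads counted (CPM) in at least 3 of these 6 libraries were tested. All mice were male C57BL/6 recipients carrying the CD45.2 form of CD45, the pan-leukocyte surface protein. At 8 weeks of age each received 1000 cGy of irradiation with its head shielded, busulfan at 30 mg/kg 6 h later, and marrow from CD45.1 donors 12 h after that. Cells made by the donor marrow therefore carry CD45.1, and the libraries came from sorted CD45.2 microglia. At 16 weeks a controlled cortical impact was given through a 5 mm craniectomy, with a 3 mm tip at 2.5 m/s, a depth of 2 mm and a dwell of 0.1 s. The day 7 mice were thus about 17.0 weeks old and the day 90 mice about 28.9 weeks old, so time after injury and age cannot be told apart. No uninjured or sham mice were analysed here. Irradiation, busulfan and transplantation were given to both groups at the same age. The time since these treatments was therefore longer in the day 90 mice and cannot be told apart from time after injury either. Fewer activated cells and less RNA per cell cannot be told apart in such bulk samples.

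Microglia of the healthy brain express a homeostatic program that includes P2ry12, Tmem119 and Cx3cr1, which serve process motility and contact with neurons. Around damaged tissue they can take up a disease-associated program, in which the lipid sensor TREM2 is followed by genes of lipid handling, phagocytosis and lysosomal digestion such as Apoe, Lpl, Cst7 and Spp1. A separate program follows type I interferon, the antiviral cytokine, whose receptor acts through STAT2 and IRF9 on antiviral effector genes.

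Each of the 6 libraries had between 7210985 and 11824787 reads assigned to genes. Day 90 replicate 1 stood apart, with a median correlation of 0.815 with the other 5 libraries across genes, against 0.853 to 0.868 for these. On principal component 1, with 31% of the variance, it scored 114 and the others -31 to -13. All 12 microglial identity markers were detected, with a summed level of 18262, 15330.0 and 19501 CPM at day 7 and 16624, 20951 and 23336 CPM at day 90. Here and below the 3 values of day 7 are those of replicates 2, 3 and 4, and the 3 of day 90 those of replicates 1, 3 and 4.

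With limma, 36 genes passed the adjusted threshold of 0.05 (0.265% of those tested), of which 6 rose (0.0441%) and 30 fell (0.221%) from day 7 to day 90. At an unadjusted p under 0.05 there were 1113 genes (8.18%), 499 higher (3.67%) and 614 lower (4.51%), where 680 would be expected by chance. The fitted mean was lower at day 90 in 51.3% of all genes and higher in 48.7%. In 35 of the 36 genes the day 30 mean lay between those of day 7 and day 90, and in all 36 the day 90 libraries did not overlap those of day 7, as in 5.73% of tested genes with day 90 above and 6.51% with day 90 below. Of the 30 fallen genes, 15 belonged to the disease-associated list. The median log2 change over all 13600 genes was -0.02. On omission of replicate 2, 3 or 4 of day 7 there were 17, 20 and 18 calls, and on omission of replicate 1 or 3 of day 90 there were 56 and 23. Of the 56, 30 were among the 36. All 9 libraries of the study entered the fit, for its estimate of spread, and with the 6 libraries alone 21 genes passed, 1 higher and 20 lower, all of them among the 36. On recovered whole reads, edgeR called 23 genes (0.169%), of which 22 were among the 36, and DESeq2 called 104 (0.765%), of which 35 were.

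**Figure D1:**
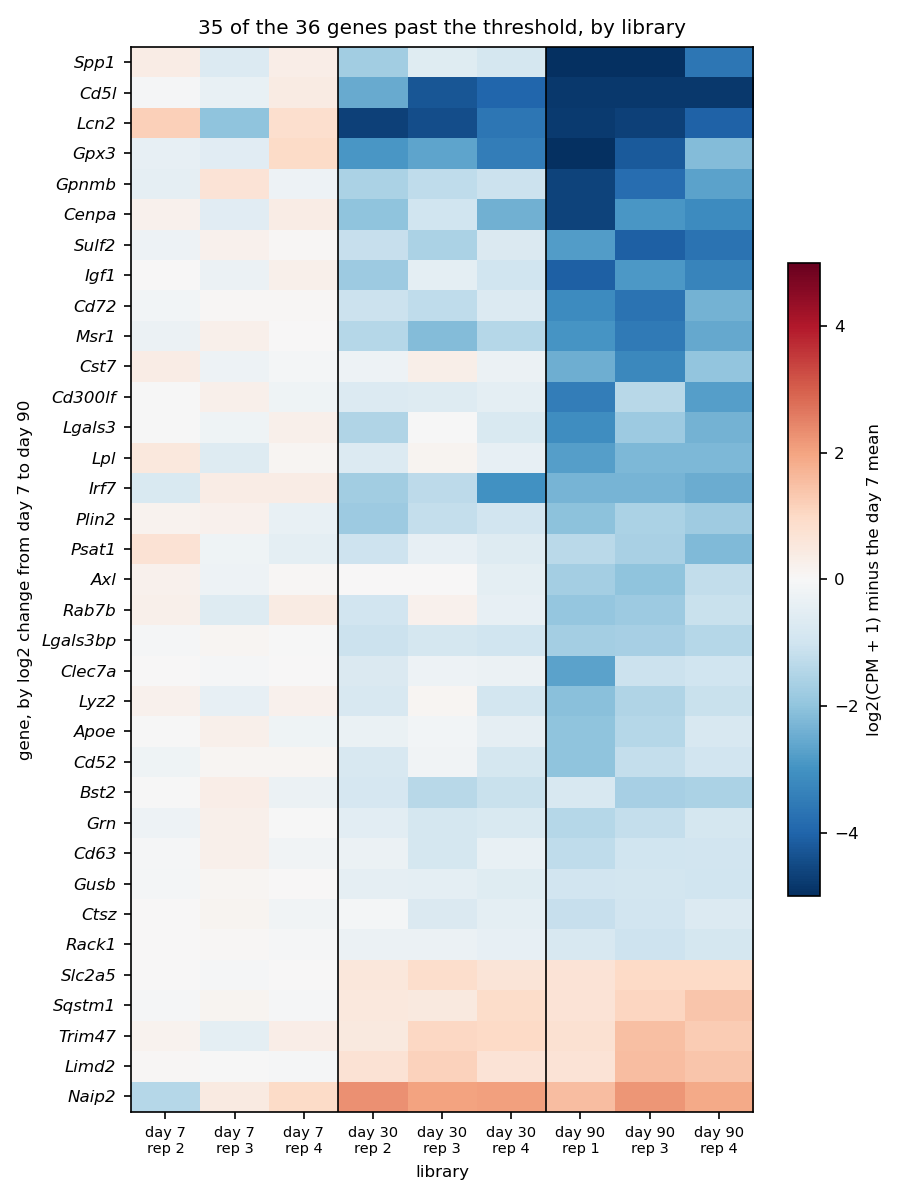
Heat map of 35 of the 36 genes past the threshold (rows) in the 9 libraries (columns), as log2(CPM + 1) minus the gene's mean over the day 7 libraries, with the colour scale clipped at -5 and 5. The 30 fallen genes are lower in each of the 3 day 90 libraries than in any day 7 library, and the 5 risen genes shown are higher.

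All 35 tested genes of the disease-associated list were lower at day 90, 15 of them past the threshold, and the list median was -1.08 against -0.02 over all genes. On omission of replicate 1 of day 90 that median was -0.95, and of replicate 4 it was -1.38. Spp1, which encodes the matrix protein osteopontin, stood at 314, 150.2 and 311 CPM at day 7 and 0, 6.17 and 19.4 CPM at day 90 (log2 change -5.55 ± 0.59 (SE), adjusted p = 2.71e-06). Its lowest library was day 90 replicate 1, and without that library the log2 change was -4.35. The Spp1 call was lost with DESeq2, with a robust spread estimate and without a filter on low values. Spp1 lies on mm10 chromosome 5, 104435118 to 104441050. Igf1, which encodes insulin-like growth factor 1, stood at 93.2, 76.5 and 112 CPM at day 7 and 4.55, 11.9 and 8.46 CPM at day 90 (log2 change -3.42 ± 0.42 (SE), adjusted p = 1.90e-05). The highest day 90 level of Igf1 lay far below the lowest day 7 level. Gpnmb, a membrane glycoprotein of phagocytes, stood at 179, 398 and 206 CPM at day 7 and 8.92, 16.4 and 37.1 CPM at day 90, with the highest value in day 7 replicate 3. Its log2 change was -3.71 ± 0.37, the smallest adjusted p of the comparison (8.74e-07). Cst7 encodes cystatin F, an inhibitor of lysosomal cathepsins, on chromosome 2, 150570415 to 150578944. It stood at 215, 141 and 156 CPM at day 7 and 30.2, 16.98 and 41.6 CPM at day 90, with the highest day 90 value in replicate 4 and no overlap. Lgals3, which encodes the glycan-binding galectin-3, stood at 69.6, 59.5 and 82.7 CPM at day 7 and 7.14, 18.9 and 12.9 CPM at day 90, and Lgals3bp, a secreted glycoprotein that binds galectin-3 (chromosome 11, 118392751 to 118402092), at 575, 641 and 607 CPM at day 7 and 185, 192 and 225 CPM at day 90. The values of Lgals3bp were close together within each day and far apart between days (log2 change -1.60 ± 0.19 (SE), adjusted p = 1.15e-05). Lgals3bp was the gene that kept its call in all 23 alternatives, and Lgals3 lost its call without day 7 replicate 4 (-2.32). Without a filter on low values every other call was lost.

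Promoters of the tested disease-associated genes were searched for short motifs. The window ran from 250 bases before to 50 bases after a start annotated in RefSeq on GRCm38.p6, 300 bases in all, and both strands were read. Only the first listed window of each gene was used, so other starts of a gene were not searched. The window of Igf1 lies inside the gene as annotated in GENCODE M21, which starts at 87858265. The letters TGANTCA, where N is any base, are looser than the binding motif of AP-1, whose middle base is C or G. They occurred in 7 of the 29 disease-associated genes with a window (24.1%), against 4.65% of windows of genes tested and 7.93% of all windows. The share in the interferon list was 6 of 28 windows (21.4%). These 7 were Cd68, Cst7, Cybb, Gpnmb, Igf1, Itgax and Trem2. The windows of Cst7 (chr2:150570165-150570464, plus strand) and Igf1 (chr10:87860861-87861160, plus strand), both of which fell, are shown 5′ to 3′ with the match in capitals. The middle base is T in Cst7 and A in Igf1, so neither match is the stricter AP-1 motif. How many of the 7 have C or G there was not counted. A match describes the letters and is not evidence of binding.
Cst7: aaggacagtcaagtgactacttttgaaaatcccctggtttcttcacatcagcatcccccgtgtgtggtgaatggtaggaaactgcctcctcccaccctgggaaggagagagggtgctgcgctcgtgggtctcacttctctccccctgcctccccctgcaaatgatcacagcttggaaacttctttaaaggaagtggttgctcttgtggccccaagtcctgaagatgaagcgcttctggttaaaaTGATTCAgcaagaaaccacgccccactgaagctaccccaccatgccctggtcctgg
Igf1: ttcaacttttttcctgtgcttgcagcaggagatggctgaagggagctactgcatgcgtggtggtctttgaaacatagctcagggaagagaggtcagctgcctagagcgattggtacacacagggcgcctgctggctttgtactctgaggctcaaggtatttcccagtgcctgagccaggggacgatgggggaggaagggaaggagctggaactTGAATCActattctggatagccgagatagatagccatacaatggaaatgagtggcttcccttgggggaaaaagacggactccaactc

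Of the 25 tested members of the lipid efflux, storage and LXR list 3 fell, of which Apoe and Lpl are also on the disease-associated list, with a list median of -0.64 against -0.02 over all genes. Apoe, the gene of the lipid transport protein apolipoprotein E, stood at 4283, 5103 and 3701 CPM at day 7 and 1065, 1630.4 and 2463 CPM at day 90. The lowest of these values was in day 90 replicate 1 and the groups did not overlap (log2 change -1.41 ± 0.23 (SE), adjusted p = 0.00175). Lpl, the lipoprotein lipase gene, stood at 434, 189 and 319 CPM at day 7 and 42.9, 61.6 and 61.7 CPM at day 90 (log2 change -2.42 ± 0.27 (SE), adjusted p = 5.43e-06). Plin2, which coats lipid droplets (chromosome 4, 86648386 to 86670060), stood at 176, 183 and 120.2 CPM at day 7 and 37.2, 52.3 and 45.4 CPM at day 90 (log2 change -1.79 ± 0.29 (SE), adjusted p = 0.00163). The 3 day 90 values of Plin2 were tightly grouped and below all day 7 values. The sterol exporter gene Abcg1 was short of the threshold (adjusted p = 0.135), at 149, 106 and 120.2 CPM at day 7 and 56.02, 62.1 and 57.2 CPM at day 90. Of the 28 tested genes of sterol and fatty acid synthesis, 0 were past the threshold with limma, edgeR or DESeq2, and the unadjusted test gave 1 higher and 0 lower. Their median of -0.04 changed sign under quantile normalization. With single libraries omitted it ran from -0.17 (day 90 replicate 1 omitted) to +0.10 (day 90 replicate 3 omitted).

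Of the 28 tested genes of phagocytic and scavenger receptors 4 fell, of which Axl and Clec7a are also on the disease-associated list. Axl, a receptor tyrosine kinase that recognises apoptotic cells through GAS6, stood at 188, 135 and 166 CPM at day 7 and 48.98, 39.00 and 68.7 CPM at day 90 (log2 change -1.65 ± 0.26 (SE), adjusted p = 0.00140). Msr1, the class A scavenger receptor gene, stood at 32.2, 47.6 and 40.04 CPM at day 7 and 4.19, 2.47 and 5.84 CPM at day 90 (log2 change -3.02 ± 0.59 (SE), adjusted p = 0.0145). Clec7a, annotated as a polymorphic pseudogene in GENCODE M21 and as protein coding in RefSeq, encodes the fungal glucan receptor dectin-1 and stood at 109, 103 and 109 CPM at day 7 and 15.7, 50.7 and 52.9 CPM at day 90, with day 90 replicate 1 well below the other day 90 libraries. Its log2 change was -1.59 (adjusted p = 0.0372) and -1.03 without day 90 replicate 1. Cd5l, a secreted survival factor of macrophages, stood at 25.9, 20.9 and 36.3 CPM at day 7 and at 0 in every day 90 library. Against a floor of 3 reads over the day 90 group, its pooled reads were at least 322-fold lower, a bound that leaves out the spread between mice. The fitted log2 change of Cd5l was -4.81 ± 0.83 (SE), with adjusted p = 0.00346. Its call was lost with a filter of 10 CPM. The list median was -0.23. That median was -0.12 with day 90 replicate 1 omitted and -0.34 with day 90 replicate 4 omitted. On omission of replicate 2, 3 or 4 of day 7, 2 members passed. Trem2 itself stood at 1204, 1230.3 and 1112 CPM at day 7 and 835, 1247 and 1295 CPM at day 90 and did not pass (adjusted p = 0.932). Inhibitory myeloid receptors held 2 falls among 22 tested, of which Cd72 is also on the disease-associated list, and had a median of -0.19. That median was +0.04 with day 90 replicate 1 omitted, -0.12 with day 7 replicate 2 omitted and -0.08 with day 7 replicate 4 omitted. Cd72, a B cell and myeloid co-receptor, stood at 84.2, 97.5 and 98.2 CPM at day 7 and 9.72, 6.36 and 17.3 CPM at day 90 (log2 change -3.06 ± 0.39 (SE), adjusted p = 2.29e-05). Cd300lf, a lipid-binding inhibitory receptor, stood at 45.9, 56.03 and 39.7 CPM at day 7 and 3.39, 17.3 and 6.09 CPM at day 90, with day 90 replicate 3 highest of that group. Calls were lost for Msr1 on omitting replicates 2, 3 or 4 of day 7 or replicate 3 of day 90 (-3.17 to -2.76), Clec7a on omitting replicates 2, 3 or 4 of day 7, replicates 3 or 4 of day 30 or replicate 1 of day 90 (-1.62 to -1.03) and Cd300lf on omitting replicates 2, 3 or 4 of day 7 or replicate 4 of day 90 (-2.64 to -2.40).

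Of 52 tested lysosomal genes 4 fell past the threshold, of which Cd63 and Ctsz are also on the disease-associated list. The lysosomal list had 40 lower members in all and a median of -0.25. That median was -0.16 with day 90 replicate 1 omitted. The falls numbered 2 on omission of replicate 2, 3 or 4 of day 7, replicate 4 of day 30 or replicate 3 of day 90. Grn, which encodes progranulin, a regulator of lysosomal function, stood at 1863, 2659 and 2187 CPM at day 7 and 828, 964 and 1216 CPM at day 90 (log2 change -1.16 ± 0.20 (SE), adjusted p = 0.00265). Cd63, a tetraspanin of late endosomes, stood at 796, 977 and 729 CPM at day 7 and 339, 414 and 424 CPM at day 90 (log2 change -1.08 ± 0.20 (SE), adjusted p = 0.00742). Neither gene had overlapping groups, and day 90 replicate 1 was lowest for both. Ctsz, the cathepsin Z gene, stood at 863, 921 and 757 CPM at day 7 and 380.3, 438 and 524 CPM at day 90 (log2 change -0.93 ± 0.20 (SE), adjusted p = 0.0328). Gusb, the β-glucuronidase gene, stood at 219, 252 and 236 CPM at day 7 and 122, 123 and 119 CPM at day 90, with the day 90 values close together (log2 change -0.95 ± 0.21 (SE), adjusted p = 0.0435). Lyz2, the macrophage lysozyme gene, whose reads may be shared with its copy Lyz1, is on the disease-associated list and stood at 1463, 955 and 1465 CPM at day 7 and 300.2, 451 and 579.9 CPM at day 90 (log2 change -1.57 ± 0.25 (SE), adjusted p = 0.00140). Cathepsins B and D, whose genes are also on the disease-associated list, were short of the threshold. Ctsb stood at 1899.9, 1284 and 1799 CPM at day 7 and 595, 974 and 997 CPM at day 90 (adjusted p = 0.0658) and Ctsd at 4545, 3659 and 3682 CPM at day 7 and 1761, 2326 and 2590.2 CPM at day 90 (adjusted p = 0.0713). The cysteine protease gene Ctss, the most abundant of the list, stood at 5286, 3476 and 5615 CPM at day 7 and 3536, 4491 and 5042 CPM at day 90, and its groups overlapped. The E-box CACGTG, read by TFEB and related factors, occurred in 12 of 43 lysosomal windows (27.9%) against 10.2% of tested genes and 7.24% of all windows, on both strands. Calls were lost for Cd63 on omitting replicate 3 of day 7 (-0.96), Ctsz on omitting replicates 2, 3 or 4 of day 7, replicate 4 of day 30 or replicates 1 or 3 of day 90 (-1.004 to -0.81) and Gusb on omitting replicates 2, 3 or 4 of day 7, replicates 2, 3 or 4 of day 30 or replicates 3 or 4 of day 90 (-1.001 to -0.90).

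**Figure D2:**
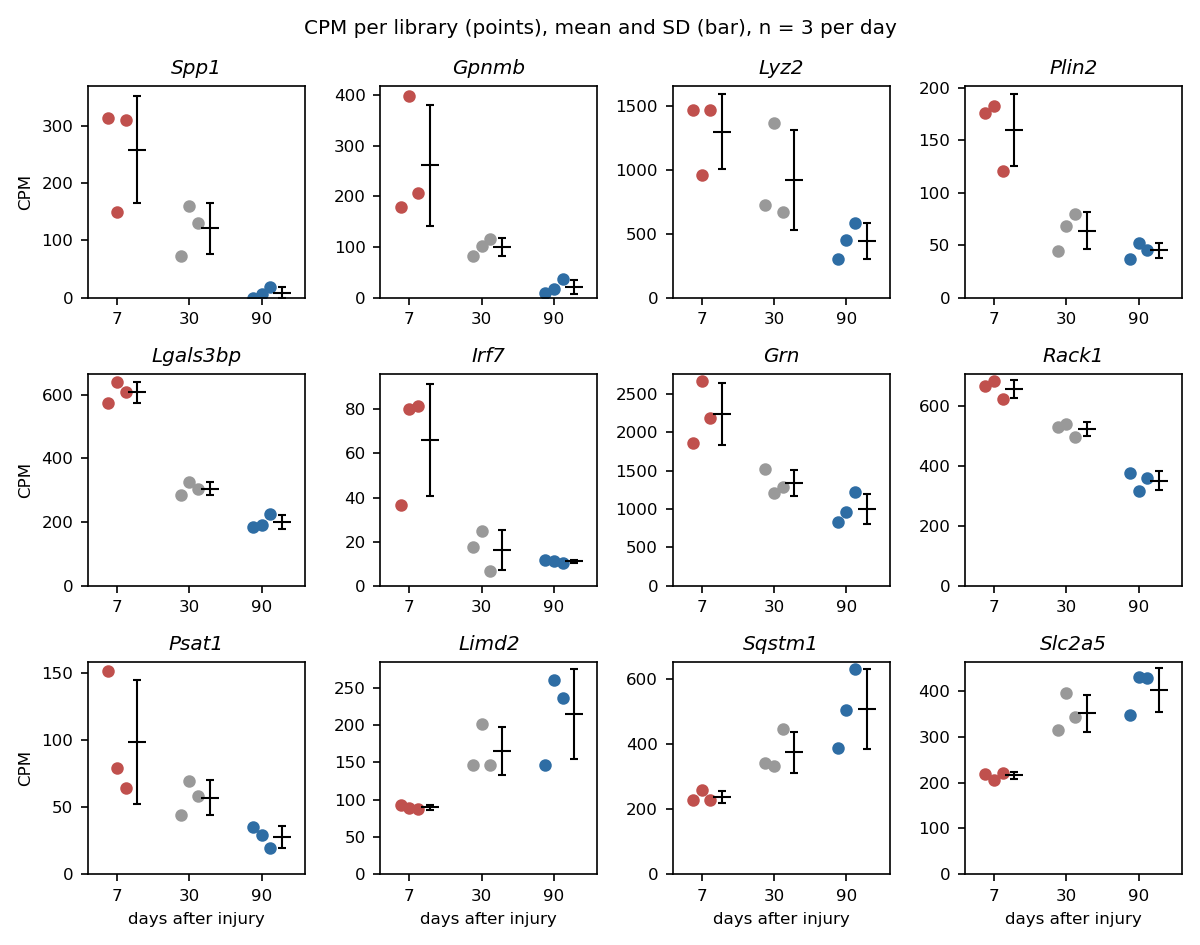
CPM (vertical axis) of 12 of the 36 genes at 7, 30 and 90 days after injury (horizontal axis), with 1 point per library and a bar for the mean and SD (n = 3). Sqstm1, Slc2a5 and Limd2 are higher at day 90 and the other 9 lower, with no overlap between the day 7 and day 90 points.

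Genes that respond to type I interferon were lower as a group. Of the 39 tested members, 3 fell past the threshold, 38 were lower and the median was -1.17 against -0.02 over all genes. The summed level was 2526, 3037 and 2656 CPM at day 7, 1402 ± 66.8 CPM (SD, n = 3) at day 30 and 1512, 1188 and 1233 CPM at day 90. Lgals3bp is a member of the disease-associated list too. Bst2, which encodes tetherin, a protein that retains virus particles at the membrane, stood at 292, 376 and 241 CPM at day 7 and 171, 93.7 and 98.01 CPM at day 90 (log2 change -1.35 ± 0.25 (SE), adjusted p = 0.00878). Day 90 replicate 1 was highest of its group for Bst2 and still below all day 7 values. Irf7, a transcription factor that amplifies interferon production, stood at 36.8, 80.2 and 81.7 CPM at day 7 and 11.6, 11.5 and 10.5 CPM at day 90 (log2 change -2.38 ± 0.51 (SE), adjusted p = 0.0303). The 3 day 90 values were near equal, and day 7 replicate 2 was the lowest of the day 7 values. Calls of these genes were lost for Bst2 on omitting replicates 2 or 3 of day 7 or replicates 3 or 4 of day 90 (-1.37 to -1.18) and Irf7 on omitting replicates 3 or 4 of day 7 or replicates 3 or 4 of day 90 (-2.40 to -2.19). The count of list members past the threshold was 1 on omission of replicate 3 of day 7 or replicate 4 of day 90, and 4 on omission of replicate 1 of day 90.

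The interferon-stimulated response element, searched on both strands as GAAA, any 2 bases and GAAA again, occurred in 14 of 28 interferon list windows (50%), against 3.05% of windows of genes tested and 3.49% of all windows. The window of Irf7 held no match in these letters. The window of Bst2 (chr8:71537423-71537722, minus strand) held 2 overlapping matches, and that of Spp1 (chr5:104434861-104435160, plus strand), which is not on the interferon list, held 1. The Spp1 match lies on the opposite strand, so its capitals are the reverse complement of the motif. Matches are a description of the letters only. Both windows are shown 5′ to 3′ with the matches in capitals.
Bst2: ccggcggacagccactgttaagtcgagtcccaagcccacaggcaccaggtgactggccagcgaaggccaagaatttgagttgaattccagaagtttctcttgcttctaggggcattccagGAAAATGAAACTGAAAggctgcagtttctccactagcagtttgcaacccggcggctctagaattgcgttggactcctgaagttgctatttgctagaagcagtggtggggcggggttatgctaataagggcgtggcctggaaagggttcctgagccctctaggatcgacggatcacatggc
Spp1: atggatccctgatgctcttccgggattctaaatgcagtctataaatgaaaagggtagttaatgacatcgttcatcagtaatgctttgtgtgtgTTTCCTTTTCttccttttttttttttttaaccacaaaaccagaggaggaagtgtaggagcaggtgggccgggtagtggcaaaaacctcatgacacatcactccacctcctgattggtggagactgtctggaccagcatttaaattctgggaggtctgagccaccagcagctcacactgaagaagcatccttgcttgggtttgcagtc

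The remaining falls were of genes with varied functions. Lcn2, which encodes the iron-siderophore binding lipocalin 2 and is also made by neutrophils, stood at 61.95, 5.82 and 47.9 CPM at day 7 and 0, 0.0949 and 0.677 CPM at day 90 (log2 change -4.49 ± 0.91 (SE), adjusted p = 0.0182). The low day 7 value was in replicate 3, and the part of neutrophils in this fall was not tested. Gpx3, a secreted glutathione peroxidase gene, stood at 26.04, 23.02 and 68.7 CPM at day 7 and 0.0892, 0.949 and 6.93 CPM at day 90, with day 90 replicate 4 nearest to day 7. Sulf2, an extracellular sulfatase gene, stood at 24.9, 35.4 and 31.3 CPM at day 7 and 3.48, 0.854 and 1.44 CPM at day 90, with no overlap. Cenpa, which encodes the centromeric histone H3 variant, stood at 27.5, 15.7 and 30.7 CPM at day 7 and 0, 2.28 and 1.78 CPM at day 90 (log2 change -3.56 ± 0.78 (SE), adjusted p = 0.0372). Cd52, which is on the disease-associated list, encodes a small lipid-anchored glycoprotein of leukocytes and stood at 231, 289.8 and 286 CPM at day 7 and 66.2, 115 and 138 CPM at day 90. Psat1, an enzyme of serine synthesis, stood at 151, 79.3 and 64.5 CPM at day 7 and 35.5, 29.3 and 19.2 CPM at day 90 (log2 change -1.72 ± 0.35 (SE), adjusted p = 0.0194). Rack1, a scaffold protein of the ribosome, stood at 664, 681 and 621 CPM at day 7 and 377, 316 and 358 CPM at day 90, with values close together within each day (log2 change -0.91 ± 0.18 (SE), adjusted p = 0.0182). Rab7b, a small GTPase of late endosomes, stood at 105, 56.9 and 117 CPM at day 7 and 22.7, 24.5 and 40.00 CPM at day 90. Calls were lost for Lcn2 on omitting replicates 2 or 4 of day 7 or replicate 3 of day 90 (-4.41 to -3.90), Gpx3 on omitting replicates 2, 3 or 4 of day 7, replicate 3 of day 30 or replicates 1 or 3 of day 90 (-4.08 to -3.18), Sulf2 on omitting replicates 2, 3 or 4 of day 7 (-3.65 to -3.41), Cenpa on omitting replicates 2, 3 or 4 of day 7, replicates 3 or 4 of day 30 or replicates 1, 3 or 4 of day 90 (-3.89 to -3.03) and Cd52 on omitting replicates 3 or 4 of day 7 (-1.34 to -1.33). Calls were also lost for Psat1 on omitting replicates 2 or 3 of day 7 or replicates 3 or 4 of day 90 (-1.83 to -1.36), Rack1 on omitting replicates 2, 3 or 4 of day 7 or replicates 3 or 4 of day 90 (-0.94 to -0.83) and Rab7b on omitting replicates 2 or 4 of day 7, replicate 4 of day 30 or replicates 1 or 3 of day 90 (-1.62 to -1.42).

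Of the 6 rises, 5 are described here, and they serve several functions. Sqstm1, which encodes the autophagy receptor p62 (chromosome 11, 50199366 to 50210827), stood at 227, 259.9 and 227 CPM at day 7 and 386, 505 and 630.2 CPM at day 90 (log2 change +1.06 ± 0.21 (SE), adjusted p = 0.0145). The list of 34 tested autophagy and TFEB target genes held no other call, and its median was -0.05. With single libraries omitted the median ran from -0.05 (day 7 replicate 2 omitted) to +0.05 (day 7 replicate 4 omitted). Atg14 stood at 14.3, 9.98 and 24.5 CPM at day 7 and 65.03, 32.8 and 33.1 CPM at day 90. Tfeb stood at 28.9, 14.7 and 13.7 CPM at day 7 and 32.4, 44.6 and 44.9 CPM at day 90. Slc2a5, a fructose transporter gene typical of homeostatic microglia, stood at 219.6, 207 and 221 CPM at day 7 and 347, 431 and 429.5 CPM at day 90 (log2 change +0.89 ± 0.20 (SE), adjusted p = 0.0372). Its day 7 values were close together and all below the day 90 values. Naip2, a sensor gene of the NAIP inflammasome with close copies that may share its reads, stood at 8.85, 35.6 and 51.4 CPM at day 7 and 76.1, 121 and 97.8 CPM at day 90, with day 7 replicate 2 far below the other day 7 values (log2 change +1.88 ± 0.40 (SE), adjusted p = 0.0303). Limd2, a LIM domain protein, stood at 92.98, 89.2 and 86.9 CPM at day 7 and 146, 260.4 and 237 CPM at day 90 (log2 change +1.21 ± 0.25 (SE), adjusted p = 0.0194). Trim47, a RING-domain ubiquitin ligase, stood at 111, 69.9 and 127 CPM at day 7 and 169.8, 283 and 243 CPM at day 90 (log2 change +1.18 ± 0.26 (SE), adjusted p = 0.0345). The day 90 values of both were highest in replicates 3 and 4 and lowest in replicate 1. Without day 90 replicate 1 there were 12 rises. There were 0 on omission of replicate 2 of day 7 or of replicate 3 or 4 of day 90, 3 on omission of replicate 3 of day 7 or of day 30, and 2 on omission of replicate 4 of day 7 or of day 30. Calls were lost for Sqstm1 on omitting replicates 2 or 4 of day 7 or replicates 3 or 4 of day 90 (+0.89 to +1.05), Slc2a5 on omitting replicates 2, 3 or 4 of day 7, replicates 2 or 4 of day 30 or replicates 3 or 4 of day 90 (+0.84 to +0.91) and Naip2 on omitting replicate 2 of day 7, replicates 3 or 4 of day 30 or replicates 3 or 4 of day 90 (+1.16 to +1.88). They were also lost for Limd2 on omitting replicates 2, 3 or 4 of day 7 or replicates 3 or 4 of day 90 (+1.04 to +1.23) and Trim47 on omitting replicates 2 or 3 of day 7, replicates 3 or 4 of day 30 or replicates 3 or 4 of day 90 (+0.93 to +1.26). On recovered reads edgeR called 0 rises, while 499 genes were higher by the unadjusted p of limma, and DESeq2 called 32.

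**Figure D3:**
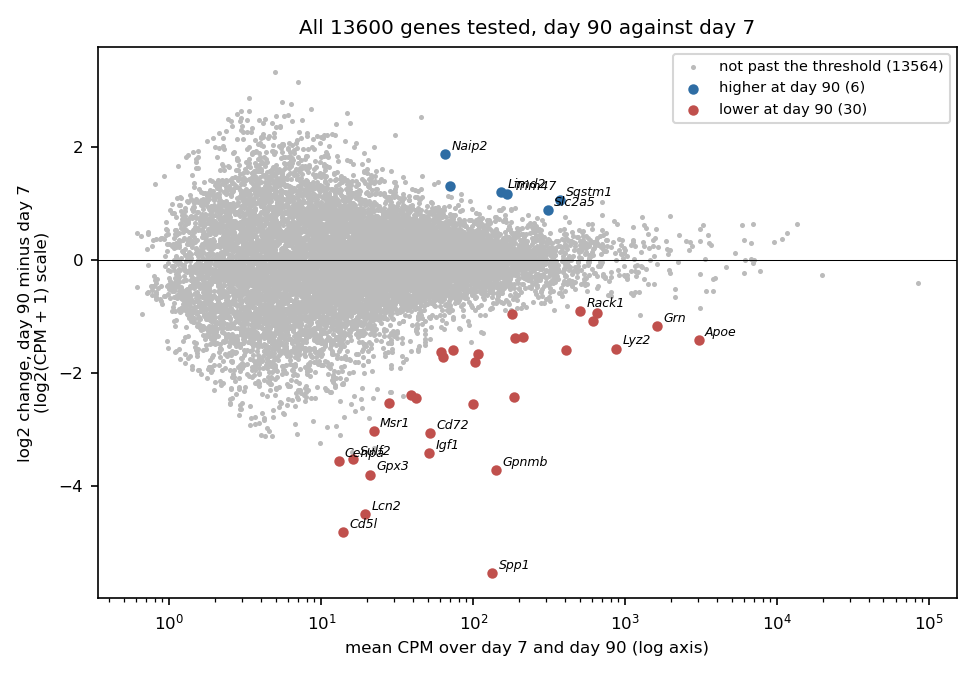
Log2 change from day 7 to day 90 (vertical axis) against the mean CPM of the 2 days on a log axis (horizontal) for the 13600 genes tested, with the 36 genes past the threshold in colour. The 6 rises lie between +0.89 and +1.88 and the 30 falls between -5.55 and -0.91.

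The homeostatic list of 30 tested genes had 19 members higher, a median of +0.20 and Slc2a5 as its call with limma. P2ry13, a purine receptor gene, stood at 1166, 985 and 1122 CPM at day 7 and 1512, 1659 and 1708 CPM at day 90 without overlap, and did not pass (adjusted p = 0.277). Olfml3, a secreted microglial glycoprotein, ran the other way, at 1341, 1413 and 1318 CPM at day 7 and 706, 876 and 1128 CPM at day 90 (adjusted p = 0.302). Cst3, which encodes cystatin C and was the most abundant member, stood at 8759, 8048 and 8482 CPM at day 7 and 9139, 11307 and 11331 CPM at day 90. These values show members on both sides of no change. P2ry12, which senses purines released by damaged cells, stood at 1002, 767 and 1031 CPM at day 7 and 1099, 1062 and 976 CPM at day 90, Tmem119, a microglia-specific membrane protein, at 975, 751 and 796 CPM at day 7 and 796, 1111 and 1159.9 CPM at day 90 and the fractalkine receptor gene Cx3cr1 at 4233, 3926 and 5573 CPM at day 7 and 4935, 7495 and 9024 CPM at day 90. The groups overlapped for each of these 3 genes and for Ptprc, which encodes CD45 and stood at 301, 337 and 374 CPM at day 7 and 284, 317 and 358 CPM at day 90, and none of the 4 passed. Without day 90 replicate 1 the homeostatic median was +0.27.

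The list of 29 lineage transcription factors held 0 calls with limma or edgeR, 2 rises with DESeq2, and unadjusted 4 members were higher and 2 were lower. Klf4, a zinc finger factor that is also on the immediate early list, stood closest to the threshold among all rises, at 519.8, 495 and 508 CPM at day 7 and 1061, 842 and 785 CPM at day 90 (log2 change +0.81, adjusted p = 0.0604). Klf6, a related factor, stood at 1152, 843 and 1161 CPM at day 7 and 1659, 1735 and 1458 CPM at day 90, and Bhlhe41, a repressor expressed in microglia, at 156, 117 and 126 CPM at day 7 and 56.1, 95.4 and 67.4 CPM at day 90. Klf4 and Klf6 were higher and Bhlhe41 lower in all 3 day 90 libraries. Among the other genes closest to the threshold on the rising side, Srf, the serum response factor gene, stood at 95.9, 102 and 122 CPM at day 7 and 205, 172 and 241 CPM at day 90 (adjusted p = 0.100), the tubulin gene Tubb2a at 121, 127 and 122 CPM at day 7 and 212, 256 and 228 CPM at day 90 and the AP-1 subunit gene Fosb at 805, 1223 and 844 CPM at day 7 and 1318, 1907 and 1651 CPM at day 90. The groups did not overlap for these 3 genes. The remaining 6 of the 10 were Cmtm4, Hnrnpc, Ptpn5, Csnk1d, Nxf1 and Cdip1, with log2 changes from +0.76 for the RNA-binding protein gene Hnrnpc to +3.15 for the phosphatase gene Ptpn5.

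On the falling side, the genes closest to the threshold after the cathepsins included Creg1, a secreted lysosomal glycoprotein, at 414, 386 and 505 CPM at day 7 and 161, 276 and 285 CPM at day 90 (adjusted p = 0.102). Rab32, a small GTPase of lysosome-related organelles, stood at 67.4, 43.96 and 83.5 CPM at day 7 and 15.8, 19.2 and 27.7 CPM at day 90, and Cpd, a carboxypeptidase of the secretory route, at 107, 115 and 115 CPM at day 7 and 68.3, 44.3 and 36.6 CPM at day 90. For each of these 3 genes every day 90 value was below every day 7 value. The membrane protein gene Ms4a7 stood at 24.01, 18.03 and 29.7 CPM at day 7 and 0, 4.55 and 3.21 CPM at day 90, and C3, the central complement component gene, at 38.96, 14.6 and 69.3 CPM at day 7 and 4.82, 0.0949 and 5.75 CPM at day 90 (adjusted p = 0.121). Wfdc17, a secreted protein gene of macrophages, stood at 36.01, 21.5 and 21.7 CPM at day 7 and 0, 0 and 15.5 CPM at day 90, with day 90 replicate 4 nearest to the day 7 level. Lmnb1, which encodes lamin B1 of the nuclear lamina, stood at 149.7, 123 and 210.3 CPM at day 7 and 29.8, 98.4 and 86.3 CPM at day 90 (adjusted p = 0.104).

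Cell cycle genes held 1 fall, Cenpa, among 39 tested, with 26 lower, 13 higher and a median of -0.50. By unadjusted p 9 were lower and 4 higher. The summed level of the list was 1169.5 ± 154 CPM (SD, n = 3) at day 7 and 1222 ± 65.0 CPM at day 90. The thymidylate synthase gene Tyms stood at 7.83, 12.6 and 18.5 CPM at day 7 and 0, 0.0949 and 2.54 CPM at day 90 (adjusted p = 0.246), and the mitotic cyclin gene Ccnb2 at 14.9, 15.4 and 17.3 CPM at day 7 and 0, 1.90 and 3.47 CPM at day 90 (adjusted p = 0.274). Both were at 0 in day 90 replicate 1 and lower in all day 90 libraries than in any day 7 library. Tuba1b, an α-tubulin gene and the most abundant member, stood at 371, 316 and 378 CPM at day 7 and 408, 409.6 and 415 CPM at day 90. On omission of replicate 1 of day 90 the list median was -0.21, and of replicate 3 it was -0.88.

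The list of alternative activation and matrix remodelling had 3 falls among 28 tested and a median of -0.47. The falls were Sulf2 and, also on the disease-associated list, Spp1 and Igf1. On omission of replicate 1 of day 90 there were 6 calls, and of replicate 2, 3 or 4 of day 7 there were 2. Timp2, its most abundant member and an inhibitor of matrix proteases, stood at 1192, 951 and 1124 CPM at day 7 and 831, 852 and 1023 CPM at day 90, and its groups overlapped. Alzheimer disease risk genes had 2 falls among 30, Apoe and Grn, with a median of -0.11. That median was -0.19 with day 90 replicate 3 omitted, -0.22 with day 7 replicate 3 omitted and -0.04 with day 7 replicate 4 omitted. Among 33 genes of oxidative stress and iron, Lcn2 and Gpx3 were the 2 falls and the median was -0.02. With single libraries omitted it ran from -0.13 (day 90 replicate 1 omitted) to +0.003 (day 7 replicate 2 omitted). The heavy ferritin gene Fth1, the most abundant of them, stood at 2651, 959.5 and 2806 CPM at day 7 and 1412, 1811 and 1925 CPM at day 90, with its lowest value in day 7 replicate 3. Cybb, the catalytic subunit of the phagocyte NADPH oxidase, stood at 80.5, 46.5 and 52.8 CPM at day 7 and 11.5, 28.3 and 37.4 CPM at day 90 (adjusted p = 0.283).

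Antigen presentation, complement and cytokine genes held 0 calls with limma or edgeR. Among 22 genes of MHC class I presentation, 0 higher and 3 lower by unadjusted p stood beside 2 falls with DESeq2, and the median was -0.16. That median was -0.25 with day 90 replicate 1 omitted and -0.28 with day 7 replicate 2 omitted. B2m, the light chain of class I molecules, stood at 2234, 2353 and 3187 CPM at day 7 and 1377, 1918 and 1636 CPM at day 90 and the class I gene H2-D1 at 1295, 1469.8 and 1394 CPM at day 7 and 1032, 937 and 845 CPM at day 90. The groups of both were apart, whereas those of H2-K1, at 2896, 3167 and 3903 CPM at day 7 and 2832, 3749 and 3512 CPM at day 90, overlapped. Reads of these class I genes may be shared between copies. For MHC class II and costimulation, 0 higher and 1 lower of 15 genes passed unadjusted and 0 passed with DESeq2. Its invariant chain gene Cd74 stood at 90.9, 129.5 and 151 CPM at day 7 and 23.1, 77.05 and 87.9 CPM at day 90, lowest in day 90 replicate 1. The class II median was -0.30. That median was +0.03 with day 90 replicate 1 omitted, -0.48 with day 90 replicate 3 omitted and -0.52 with day 90 replicate 4 omitted. Of 18 complement genes, 0 higher and 2 lower passed unadjusted and 1 fell with DESeq2. C4b stood at 20.1, 28.4 and 25.9 CPM at day 7 and 0.0892, 3.51 and 15.98 CPM at day 90, and C1qc, a subunit of the initiating complex and the most abundant member, at 7847, 4623 and 7339.6 CPM at day 7 and 4373, 5598 and 6699 CPM at day 90. Of 24 cytokine and chemokine genes, 0 higher and 8 lower passed unadjusted and 1 fell with DESeq2. The neutrophil chemoattractant gene Cxcl2 stood at 207, 76.4 and 194 CPM at day 7 and 32.9, 70.03 and 90.7 CPM at day 90 and the interferon-γ induced chemokine gene Cxcl9 at 2.64, 5.96 and 14.6 CPM at day 7 and 0, 0 and 0 CPM at day 90. The Cxcl2 groups overlapped at day 7 replicate 3, and Cxcl9 was at 0 in all day 90 libraries. The cytokine median was -0.44. That median was -0.15 with day 90 replicate 1 omitted, -0.74 with day 7 replicate 3 omitted and -0.26 with day 7 replicate 4 omitted.

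The lists of NF-kB, unfolded protein response, p53, TGF-beta, oxidative phosphorylation, glycolysis and proteasome genes held 0 calls with limma, edgeR or DESeq2. For the 24 NF-kB pathway genes, the unadjusted test gave 3 higher and 0 lower, with the inhibitor gene Nfkbiz at 1176, 1035 and 1346 CPM at day 7 and 1399.5, 1576 and 1937 CPM at day 90. For the 28 unfolded protein response genes there were 4 higher and 0 lower. Ddit3, which encodes the stress factor CHOP, stood at 131, 127 and 103 CPM at day 7 and 168, 229.9 and 295 CPM at day 90 (adjusted p = 0.204) and Xbp1, a factor of secretory capacity, at 133, 108 and 136 CPM at day 7 and 173, 229.9 and 201 CPM at day 90. Both were higher in all day 90 libraries than in any day 7 library, as was Atf3, a stress-responsive factor, at 2681, 2021 and 2962 CPM at day 7 and 3068, 4683 and 4098 CPM at day 90. Among 25 p53 target and senescence genes there were 2 higher and 4 lower, with the stress cytokine gene Gdf15 at 51.6, 75.3 and 86.8 CPM at day 7 and 16.2, 23.6 and 35.7 CPM at day 90 (adjusted p = 0.202). Among 28 TGF-beta signalling genes there were 2 higher and 2 lower, with the BMP receptor gene Bmpr2 at 145, 193 and 189 CPM at day 7 and 142, 96.9 and 80.4 CPM at day 90. The 77 nuclear genes of oxidative phosphorylation had 1 higher and 0 lower and a median of +0.14. With a library omitted it ran from -0.08 (day 90 replicate 1 omitted) to +0.23 (day 90 replicate 3 omitted). The 32 glycolysis and hypoxia genes had 1 higher and 0 lower, and the 33 proteasome genes 1 higher and 3 lower, with medians of -0.07 and 0.0013. With a library omitted the first ran from -0.13 (day 7 replicate 3 omitted) to +0.09 (day 90 replicate 1 omitted). The second ran from -0.12 (day 90 replicate 1 omitted) to +0.10 (day 90 replicate 3 omitted). The proteasome median changed sign under each of the 4 other scalings.

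**Figure D4:**
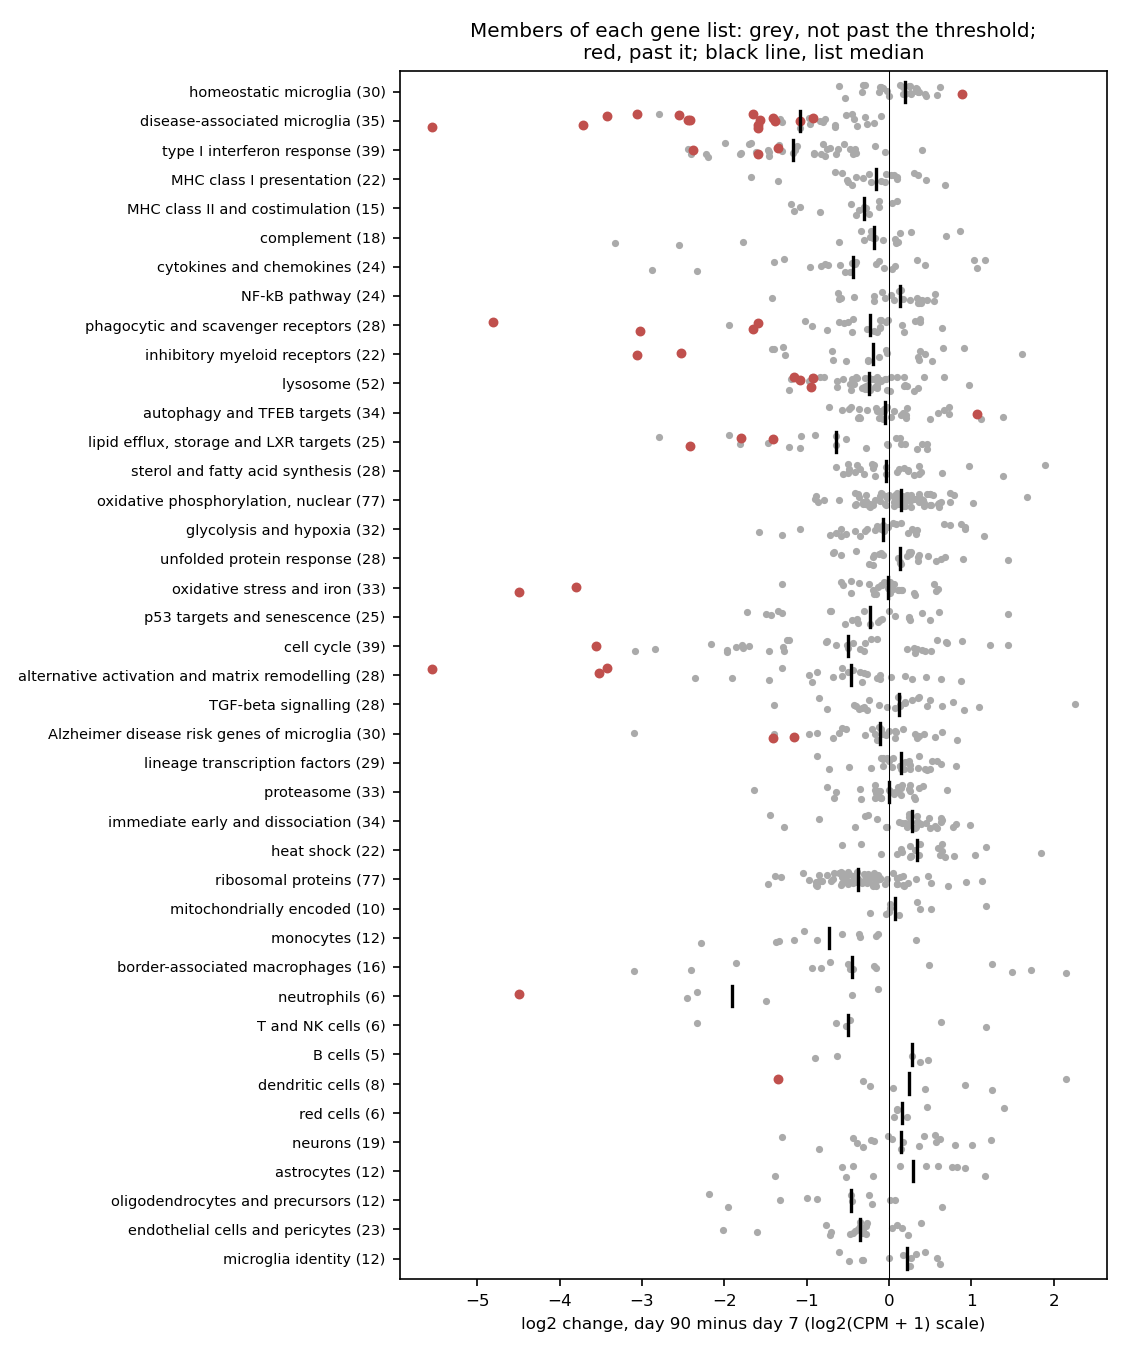
Log2 change from day 7 to day 90 (horizontal axis) of each tested member of the 41 gene lists (vertical axis, with the number tested), red where past the threshold and grey where not, with a black line at the list median. The disease-associated and interferon medians lie at -1.08 and -1.17, and the homeostatic median at +0.20.

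Genes linked to handling and RNA quality also differed in median over the same interval, and their part in the results was not tested. Immediate early genes are induced by stimulation and when tissue is dissociated. They had a median of +0.28 with 25 of 34 higher. They held 0 calls with limma or edgeR and 4 rises with DESeq2, and unadjusted 9 were higher and 1 was lower. Their summed level was 47047, 46396 and 54601 CPM at day 7 and 56562, 72983 and 63431 CPM at day 90. Heat shock genes had a median of +0.34 (+0.22 with day 7 replicate 3 omitted) with 19 of 22 higher, 0 calls with limma, edgeR or DESeq2, and 4 higher by unadjusted p. The co-chaperone gene Dnajb1 stood at 683, 244 and 435 CPM at day 7 and 465, 1382 and 982 CPM at day 90. The reads of cytoplasmic ribosomal protein genes may be shared with their pseudogenes. These genes had a median of -0.38 with 61 of 77 lower. They held 0 calls with limma, edgeR or DESeq2, and 1 was higher and 15 lower unadjusted. Their sum was 11391, 13900.0 and 11824 CPM at day 7 and 9693, 9312 and 10057 CPM at day 90, and Rack1, which binds the ribosome, fell alongside. The 10 mitochondrially encoded genes had a median of +0.07. With a library omitted it ran from -0.13 (day 90 replicate 1 omitted) to +0.15 (day 90 replicate 4 omitted). They held 0 calls with limma, edgeR or DESeq2 and 0 genes at an unadjusted p under 0.05.

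Each list of markers of other cells summed to less than the microglial identity list. The part of other cells in the results was not tested beyond the values given here. Single markers, picked after their values were seen, reached the level of microglial genes such as Tmem119. The endothelial Flt1 stood at 1079, 978 and 713 CPM at day 7 and 1603, 697 and 388 CPM at day 90. The neuronal Meg3 stood at 856, 969 and 1009.6 CPM at day 7 and 736, 876 and 1387 CPM at day 90. The 12 tested monocyte markers, 11 of them lower, summed to 1611 to 2140.2 CPM at day 7 and 1341 to 2333 CPM at day 90, most of which was Nr4a1 and Ly6c1, genes that microglia or endothelium also express. Their median was -0.72 (-1.23 with day 90 replicate 4 omitted and -0.33 with day 90 replicate 3 omitted). Fn1, with the smallest p of them, stood at 206.5, 202 and 207 CPM at day 7 and 161, 105 and 81.2 CPM at day 90 (adjusted p = 0.224). The defining monocyte genes Ly6c2 and Ccr2, singled out after their values were seen, stood at 3.87, 9.85 and 0.442 CPM at day 7 and 0.446, 0.0949 and 1.95 CPM at day 90 and at 3.87, 17.5 and 0.354 CPM at day 7 and 0.357, 4.27 and 7.02 CPM at day 90. Border-associated macrophage markers summed to 288 to 389 CPM at day 7 and 236 to 337 CPM at day 90. Of the 16 tested 5 were higher, 3 of them without overlap, and 11 were lower, 3 of them without overlap. Over all tested genes, 5.73% had day 90 above without overlap and 6.51% below. The list median was -0.46 (-0.81 with day 90 replicate 4 omitted and -0.12 with day 90 replicate 1 omitted). Of the border-associated markers 0 passed with limma or edgeR. By unadjusted p 2 were higher and 3 lower, and 1 fell with DESeq2. Stab1, the stabilin-1 gene and the most abundant of them, stood at 162, 132 and 136 CPM at day 7 and 117, 117 and 145 CPM at day 90. Of 17 neutrophil markers 6 were tested, and Ly6g, Mpo and Elane were at or near 0 in all 6 libraries. All 6 tested were lower, with Lcn2 as the 1 call and a median of -1.91. With single libraries omitted that median ran from -2.92 (day 7 replicate 2 omitted) to -0.71 (day 7 replicate 3 omitted). Neutrophil markers summed to 145 to 359 CPM at day 7 and 59.3 to 167 CPM at day 90, and the calprotectin gene S100a8, also singled out after its values were seen, stood at 5.90, 89.6 and 32.7 CPM at day 7 and 3.12, 0 and 39.5 CPM at day 90. Its highest values were in day 7 replicate 3 and day 90 replicate 4. The T and NK cell markers summed to 27.3 to 55.9 CPM at day 7 and 16.3 to 31.3 CPM at day 90, with Cd3e, Cd3d, Cd4 and Cd8a at or near 0. Of the 6 tested 4 were lower and 2 higher, and the median was -0.50 (-0.13 with day 7 replicate 4 omitted). Of the B cell markers, Cd79a and Ms4a1 were at 0 in all 6 libraries, and the sum of 205 to 322 CPM at day 7 and 289 to 359 CPM at day 90 was mostly Ighm. Endothelial and pericyte markers, 3457 to 5922 CPM at day 7 and 2340.0 to 6218 CPM at day 90 in sum, were highest in day 90 replicate 1, the library that stood apart, and their median was -0.35. With single libraries omitted it ran from -0.72 (day 90 replicate 1 omitted) to -0.16 (day 90 replicate 4 omitted). Dendritic cell markers summed to 1358 to 1589.8 CPM at day 7 and 1359 to 1521 CPM at day 90, of which Bst2 was the 1 call. Red cell markers summed to 261 to 529 CPM at day 7 and 257 to 619.9 CPM at day 90, and neuronal markers to 1186 to 1369.6 CPM at day 7 and 1035 to 1908 CPM at day 90. Astrocyte markers summed to 316 to 391 CPM at day 7 and 329 to 430.1 CPM at day 90, and oligodendrocyte markers to 403 to 604 CPM at day 7 and 392 to 502 CPM at day 90. In each of these 4 lists the ranges of the 2 days overlapped.

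The 36 genes differed in how far they had moved by day 30. Day 30 shares no library with the other days, but the day 30 to day 7 and day 90 to day 30 differences each share samples with the day 90 to day 7 difference, so the following values are a description. As a share of the change from day 7 to day 90 on the log2 scale, the median position of day 30 was 46.99%. The 30 falls ranged from 3.52% to 94.6%, with 7 of them under 25% and 4 over 75%. Of the 7 late movers, 5 were on the disease-associated list, as were 15 of all 30 falls. Cst7 was at 141, 203 and 137 CPM in day 30 replicates 2, 3 and 4, 3.52% of the way from day 7. Axl was at 165, 166 and 116 CPM on day 30 (8.47%), Lpl at 187, 326 and 223 CPM (13.1%) and Apoe at 3448, 3921 and 3201 CPM (21.3%). These 4 genes had day 30 values nearer to day 7 than to day 90. Spp1 (19.5%), Rab7b (23.3%) and Cd300lf (24.5%) made up the other 3 under 25%. The log2 change from day 7 to day 30 was -1.08 ± 0.59 (SE) for Spp1, -0.38 ± 0.35 for Rab7b and -0.62 ± 0.50 for Cd300lf. The positions depend on the log2 scale. The means of Spp1 were 258 CPM at day 7, 121 CPM at day 30 and 8.51 CPM at day 90. Of the 4 early movers, Irf7 and Bst2 were on the interferon list, as were 3 of all 30 falls. Irf7 was at 17.7, 24.8 and 6.83 CPM on day 30 (85.1%) and Bst2 at 168, 113 and 138 CPM (82.05%), while Lcn2 (94.6%) and Gpx3 (79.2%) were the other 2 over 75%. The interferon sum had its day 30 and day 90 means close together, at 1402 ± 66.8 CPM and 1311 ± 175 CPM, against 2739.8 ± 266 CPM at day 7. The disease-associated sum went from 25467 ± 1965 CPM at day 7 to 20731 ± 2239 CPM at day 30 and 14232 ± 2963 CPM at day 90. The 6 rises lay between 60.2% and 113%, with Naip2 above its day 90 level at 129, 107 and 109 CPM on day 30. Of the 36 genes, 7 were also past the limma threshold between day 30 and day 90 (0.0515% of all tested) and 0 between day 7 and day 30.

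**Figure D5:**
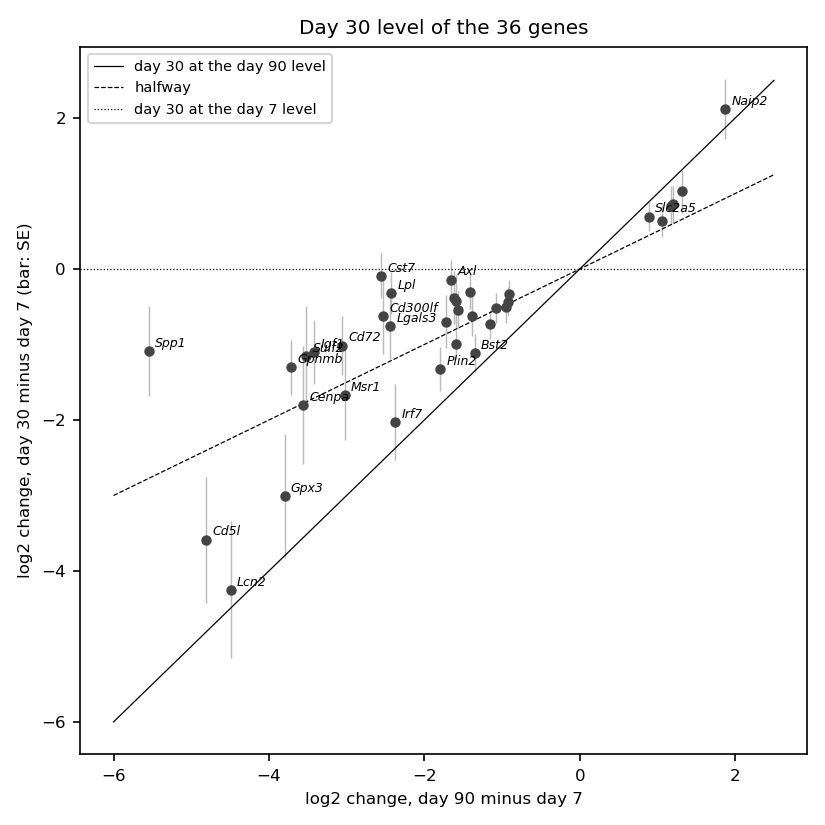
Log2 change from day 7 to day 30 (vertical axis, bars are SE) against the change from day 7 to day 90 (horizontal axis) for the 36 genes, with lines where day 30 equals day 7, lies halfway and equals day 90. Cst7, Axl and Lpl lie near the day 7 line at 3.52%, 8.47% and 13.1% of their change, and Lcn2 near the day 90 line at 94.6%.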

How the data were processed

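Whole transcriptome 3' mRNA libraries were made by the authors from sorted CD45.2 microglia with PicoPure and QuantSeq kits and run on a NextSeq 500, per the labels' protocols. The submitters' processing notes name bcl2fastq, STAR, HTSeq and the mm10 genome, while the sources used here do not give versions, the annotation release or whether counting used strand. The deposited values are CPM, read counts scaled by the authors to a library total of 1000000. Dividing by the CPM of 1 read gave whole reads for 100% of values within 1e-06.

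Values were analysed as log2(CPM + 1), so that changes of genes with low levels are understated. In R 4.3.3, limma 3.58.1 (eBayes with a mean trend) fitted all 9 libraries with 1 mean per day, and the two-sided contrast of day 90 minus day 7 was adjusted by Benjamini-Hochberg over the 13600 genes. There were 6 residual and 22.3 prior degrees of freedom. Alternatives were edgeR 4.0.16 and DESeq2 1.42.0 on the recovered reads, pseudocounts of 0.1 and 5 CPM, other filters, 4 scalings, a robust spread, array weights, the 6 libraries alone, a replicate block and each library left out. The code was also run on simulated data, whose outcome is not given here and is not used as support for any call. P-values and SE of limma combine a gene's spread between mice within each day, over all 9 libraries, with a spread shared across genes. They are not the spread of that gene among the mice of day 7 and day 90 alone. Floors cover counting error only.

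Gene positions and biotypes came from GENCODE M21 on GRCm38, the build of mm10, which holds 13579 of the 13600 IDs. As strand use is not stated, reads of a gene and an overlapping or antisense gene cannot be told apart. The genes and the 41 gene lists were chosen with earlier results of these data known. The rule for named genes took all genes past the threshold, the 10 with the smallest p short of it in each direction, the 3 list members with the smallest p and the most abundant one in each biology list, 2 such members in each other list, and in every case Apoe, Cx3cr1, P2ry12, Ptprc, Tmem119 and Trem2. The text leaves out some genes that this rule took, a choice made with their values known, and 1 gene past the threshold is not reported here. The 1 gene called by both count tools and not by limma has no symbol.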

Additional observations from a re-analysis of the deposited data

How the results depend on the processing

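The count of 36 genes past the threshold became 21 with the 6 libraries alone, 104 with DESeq2, 23 with edgeR and 1 without a filter on low values, and 17 to 56 when each library was left out. The 6 rises became 1 with the 6 libraries alone, 32 with DESeq2, 0 with edgeR, 0 without a filter and 2 with a pseudocount of 0.1 CPM, and 0 to 12 when each library was left out. The 30 falls became 72 with DESeq2, 1 without a filter and 16 to 44 when each library was left out. Causes of these changes were not tested. The 6 libraries alone leave fewer samples. Without a filter more genes enter both the adjustment and the estimate of spread that genes share, and these were not separated. Median-of-ratios, quantile and mitochondrial or ribosomal scalings each kept all 36 genes, and TMM kept 35.

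Over 827 values of the 36 genes in the 23 alternatives, 617 were past the threshold, 210 were not and 0 changed sign. The other 113 named genes gave 2588 values, of which 40 changed sign, none of these past the threshold, and 26 genes passed in at least 1 alternative. With the replicate block there were 41 genes, 9 higher and 32 lower, and 25 of the 36 were among them. The 2 numbers shared by both days belong to different mice, so they do not pair the samples. Same-numbered libraries correlated in their deviations at -0.046 and 0.0309, and the other pairs at -0.0524 to 0.0443. These 2 pairs are too few to judge a batch shared by replicate number, which was not tested. Depth limits the genes with few reads: 16 tested genes were at 0 in all day 7 libraries and 23 in all day 90 libraries.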
